A study of Mus musculus with 10 samples.

Results

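Metallothioneins are small cysteine-rich proteins that bind zinc and copper, and zinc transporters move the metal into and out of cells and their compartments. The 8 members of this system followed here in mouse liver are the metallothionein genes Mt1 and Mt2, the zinc-sensing transcription factor gene Mtf1, the importers Slc39a4, Slc39a8 and Slc39a14, and the exporters Slc30a1 and Slc30a10. They were chosen by gene name, through the accession of each array probe, and 12 of the 56605 probes on the array belonged to them. All 8 genes had at least 1 probe and were among the 15089 named genes tested. All 12 probes were well above background on all 10 arrays, and no spot was saturated.

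The livers came from adult male C57BL/6J mice, an inbred strain, bought when 7 weeks old. Both groups ate a diet with 60% fat for 4 months. The HFD control group (5 mice) had that diet alone. For the HFD ethanol group (5 mice) the drinking water of the last 3 months contained ethanol, giving daily doses of 5 g per kg for a week and of 10 g per kg from then on. There was no group on a standard diet, so every value below is from mice on the high-fat diet, and the comparison asks what ethanol added to it. The mice on arrays were 5 of 10 in each group, picked at random per the labels, with 1 animal on each array.

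Zinc inside the cell activates the factor encoded by Mtf1, which binds metal response elements in the promoters of Mt1, Mt2 and Slc30a1. Liver metallothionein genes are also known to respond to glucocorticoids and to interleukin 6, and metallothionein holds a large part of the exchangeable zinc of hepatocytes. ZIP proteins, encoded by Slc39 genes, bring metal into the cytosol, and ZnT proteins, encoded by Slc30 genes, take it out. Several of them carry manganese as well as zinc.

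Promoter windows of 2 members are shown first. Of the 8 members, 6 had an entry in the RefSeq promoter table, with 7 start sites between them, and Slc39a4 and Slc39a14 had none. Each sequence below is the 250 bases before the gene's annotated start, 5′ to 3′ on the plus strand of GRCm38.p6. Capitals mark exact matches, on either strand, to TGCACNC or TGCGCNC, which together spell the core of the metal response element. Mt2 is shown as the metallothionein with the larger difference between the groups, and Slc30a10 as the member with the most negative correlation with Mt1. The table's windows for Mt1 and Slc30a1 reach past the first annotated base of the gene, so they are not printed and only their matches are counted.
Mt2 (chr8:94172368-94172617): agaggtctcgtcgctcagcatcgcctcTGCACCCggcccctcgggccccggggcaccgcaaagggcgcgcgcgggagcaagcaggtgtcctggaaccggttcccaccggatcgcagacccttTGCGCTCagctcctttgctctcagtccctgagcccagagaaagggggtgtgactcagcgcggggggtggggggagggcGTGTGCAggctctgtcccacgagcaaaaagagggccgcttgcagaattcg
Slc30a10 (chr1:185454598-185454847): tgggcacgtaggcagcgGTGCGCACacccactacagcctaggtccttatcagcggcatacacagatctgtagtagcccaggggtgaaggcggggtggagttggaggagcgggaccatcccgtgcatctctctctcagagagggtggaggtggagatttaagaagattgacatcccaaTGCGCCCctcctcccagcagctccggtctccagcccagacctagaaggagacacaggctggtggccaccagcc
The Mt2 window held 3 matches. At least 3 matches were found in 1.26% of the 32851 promoters of the table, and at least 1 in 21.4%. Slc30a10 also had 3, of which 2 overlapped on opposite strands. The windows of Mt1 and Slc30a1 held 1 each. The start that the table gives for Mt1 may lie upstream of the one commonly used, so this count does not describe the whole Mt1 promoter. When the 50 bases after the start were searched too, Mt1 had 3 matches, Mt2 4, Slc30a1 2 and Slc30a10 3, and at least 3 were found in 1.97% of windows of that length. The Mtf1 window held 0 matches, and the Slc39a8 windows held 0 and 1. A match describes the letters of the window and does not show binding. Mt2 and Mt1 are neighbours on chromosome 8, with no annotated gene between them, beside Mt3 and Mt4.

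The arrays were read as log2 signal relative to the 75th percentile of each array, so that 0 is the 75th percentile and 1 unit is a doubling. A level of one probe cannot be set against that of another, and only differences between mice are compared. The arrays lay on 3 slides. Control replicates 4 and 5 shared slide 1 with ethanol replicate 4. On slide 2 were control replicates 1 and 3 alone, and on slide 3 control replicate 2 with the other 4 ethanol mice. Slide and treatment are therefore partly confounded. The column of an array on its slide was partly confounded with treatment too. Column 4 held control replicates 1, 4 and 5 alone, and column 1 held ethanol replicates 2 and 3 alone. Across the 10 arrays 55.5% to 59.1% of spots were well above background. Of the 9 hepatocyte markers measured, all were well above background on every array, and their summed linear signal ran from 4059 to 5291 times the 75th percentile in control and from 4441 to 4852 in ethanol livers. Of 7 pancreatic markers Cpa1, Pnlip, Prss2 and Cpb1 were not well above background on any array, while Cela2a, Amy2a5 and Ctrb1 were on all 10. Of 6 enterocyte markers this held for Lct and Alpi, while Fabp2 and Apoa4 were well above background on all 10. Of 6 adipocyte markers it held for Adipoq and Plin1, while Lep, Cidec and Fabp4 were well above background on all 10.

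In limma no member had an adjusted p under 0.05, where 3 of the 15089 genes did (0.0199%), 2 higher (0.0133%) and 1 lower (0.00663%) with ethanol. With normexp background correction the split was 4 and 4. In this fit no member reached an unadjusted p of 0.05 either, against 13.3% of all genes tested (7.97% higher and 5.3% lower). Under some alternatives members did. For Mt2 the unadjusted limma p was 0.0247 with normexp, 0.0282 with quantile normalization and 0.0332 with median scaling, but 0.0511 with slide as a fixed block. For Slc39a14 it was 0.0459 with slide as a random block. The share of all genes at that level was not counted for the alternatives. In no member did the 5 ethanol values lie apart from the 5 control values, against 3.05% of all genes (1.94% higher and 1.11% lower). Both metallothioneins, Mtf1 and Slc39a4 had lower means with ethanol, and the other 4 members had higher means. The median log2 difference was -0.011 over the members and 0.028 over all genes. Of all genes tested 56.4% had higher means with ethanol, but 36.8% did with median scaling. Counts of higher and lower means therefore depend on the scaling.

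Mt1 was lower in mean with ethanol by 0.56 on the log2 scale, but the groups overlapped widely. The log2 signals of Mt1 were 5.86, 7.15, 6.67, 6.12 and 6.93 in control replicates 1 to 5 and 6.70, 6.53, 5.17, 6.01 and 5.53 in ethanol replicates 1 to 5. Ethanol replicates 3 and 5 lay below every control mouse, while ethanol replicate 1 lay above 3 of the 5 control mice. The means were 6.55 ± 0.54 (SD, n = 5) and 5.99 ± 0.65 (SD, n = 5), a log2 fold change of -0.56 ± 0.34 (SE) with a 95% interval from -1.31 to 0.19. The limma adjusted p was 0.478, and the exact two-sided permutation p was 0.183. The interval allows anything from a log2 fall past 1 to a small rise. In a whole liver sample, fewer cells of a type and less RNA per cell cannot be told apart.

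For Mt2, as for Mt1, the 2 lowest mice were ethanol replicates 3 and 5. Its log2 signals were 4.70, 5.79, 5.19, 5.10 and 5.61 in control and 5.03, 5.42, 3.98, 4.68 and 3.83 in ethanol replicates 1 to 5. Ethanol replicates 3, 4 and 5 lay below the lowest control mouse, control replicate 1, and ethanol replicates 1 and 2 lay inside the control range. The means were 5.28 ± 0.43 (SD, n = 5) and 4.59 ± 0.68 (SD, n = 5), with 4 of 5 ethanol mice below the control mean. The log2 fold change was -0.69 ± 0.32 (SE), with a 95% interval from -1.40 to 0.023, a limma adjusted p of 0.381 and an exact permutation p of 0.0952. The smallest p that 5 against 5 allows is 0.00794.

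Both metallothioneins varied far more among mice than most genes did. Between the lowest and the highest of the 10 mice the signal differed 3.94-fold for Mt1 and 3.90-fold for Mt2. The SD within groups was 0.60 for Mt1 and 0.57 for Mt2, against a median of 0.20 over all genes, and both lay above 92.9% of genes or more in this measure. In the size of the log2 fold change Mt1 ranked above 93.1% and Mt2 above 95.8% of all genes tested. Lower means with ethanol were found for 7 of 9 stellate cell markers, against 6573 of all 15089 genes. The same held for 4 of 5 bile duct, 4 of 5 neutrophil, 5 of 7 lymphocyte and 6 of 9 endothelial cell markers. It held for 6 of 10 Kupffer cell and 4 of 9 hepatocyte markers, and no marker of these lists passed the threshold. The summed signal of the stellate cell markers ran from 108.1 to 140.7 in control and from 98.7 to 119.1 in ethanol livers. For Kupffer cell markers the ranges were 64.4 to 110.7 and 58.8 to 117.5, and for bile duct markers 9.29 to 27.8 and 3.67 to 16.6. Most of the bile duct sum was Spp1, with log2 signals from 3.03 to 4.71 in control and from 1.43 to 3.96 in ethanol livers. Krt7 and Epcam were too dim to be tested, so this range does not describe bile duct cells as such. The part of these markers in the metallothionein values was not tested.

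Within slide 1 the log2 fold changes were -0.51 for Mt1 and -0.68 for Mt2, and within slide 3 they were -1.16 and -1.23. Slide 3 held a single control mouse, control replicate 2, which had the highest Mt1 and Mt2 signals of all. With slide as a fixed block they were -0.87 and -0.98. Without ethanol replicate 3, the lowest mouse for Mt1, its value was -0.35.

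A further probe of Mt1, designed on a predicted transcript, gave a log2 fold change of -0.46 ± 0.43 (SE). Its signals were -1.997, -1.91, -1.70, -3.09 and -1.997 in control and -2.38, -1.15, -3.11, -3.66 and -2.69 in ethanol replicates 1 to 5. It ordered the mice differently, with ethanol replicate 2 highest. Over the 10 mice it correlated with the main Mt1 probe at r = 0.587 (rho = 0.539, permutation p = 0.074 and 0.112). The scanner tables used here hold no probe sequences, so how far a probe of one metallothionein also binds the RNA of the other was not tested.

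**Figure D1:**
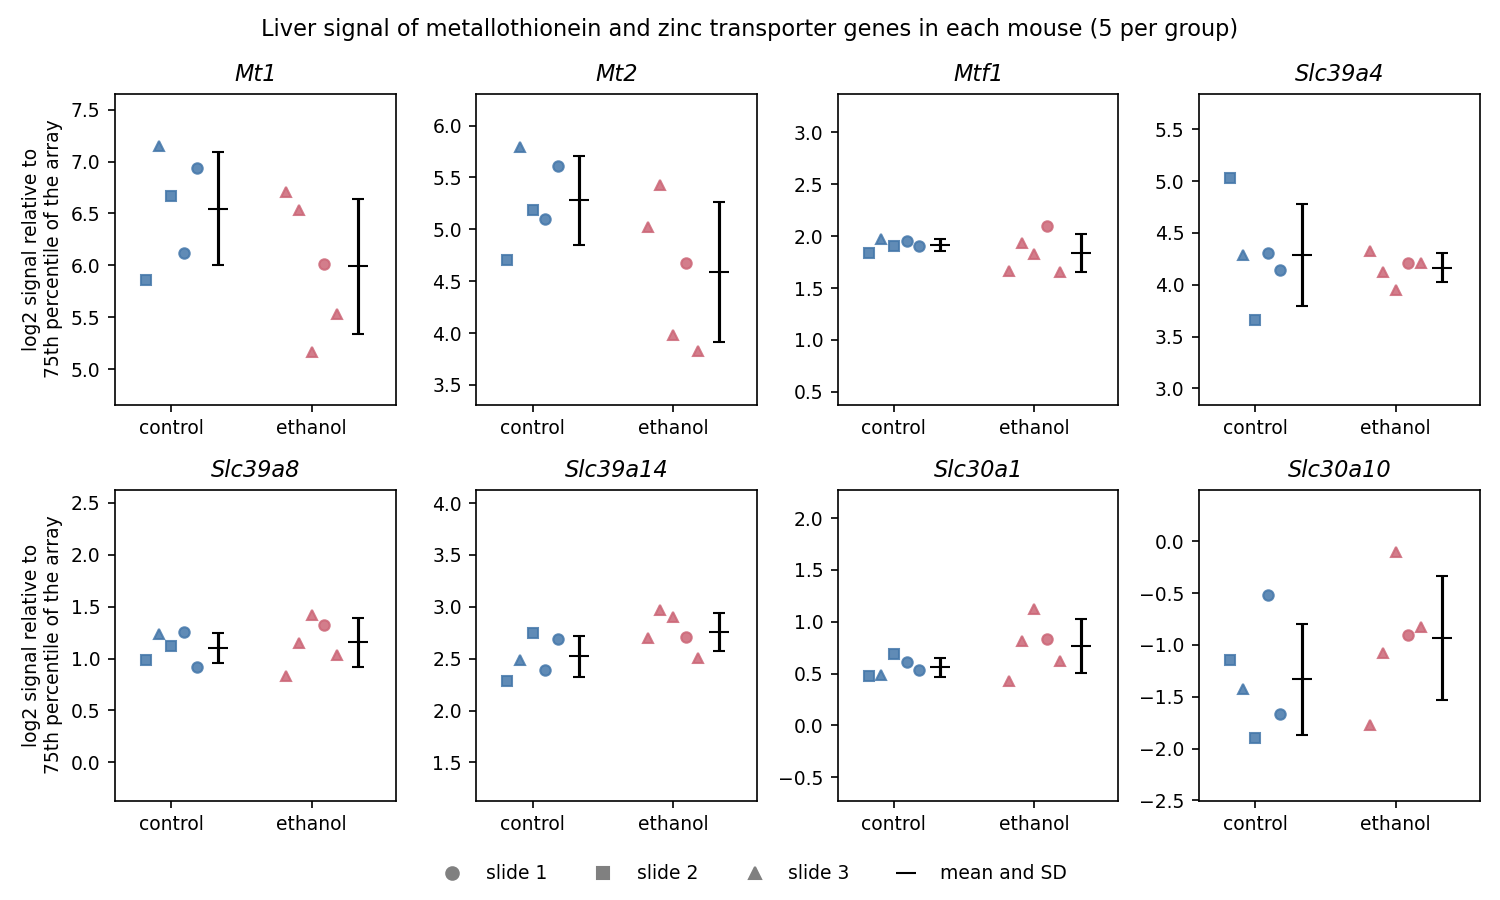
Log2 signal relative to the 75th percentile of the array (vertical axis, a span of 3 units in each panel) for the 8 genes in each of the 5 control and 5 ethanol mice; marker shapes give the slide and the bars give the mean and SD. Mt1, Mt2 and Slc30a10 spread widely within both groups. Mtf1 spread hardly at all in control mice and more in ethanol mice (SD 0.053 and 0.19), and in every panel the groups overlap.

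Mtf1, which encodes the zinc-sensing factor, was the least variable member. Its log2 signals were 1.84, 1.98, 1.90, 1.96 and 1.90 in control and 1.67, 1.94, 1.83, 2.10 and 1.66 in ethanol replicates 1 to 5. The control mice lay close together, and the ethanol mice fell on both sides of them. The log2 fold change was -0.077 ± 0.093 (SE), with a 95% interval from -0.28 to 0.13 and a limma adjusted p of 0.732. The SD was 0.053 in control and 0.19 in ethanol mice, and this difference in spread was not tested. The other Mtf1 probes gave -0.19 ± 0.15 and -0.047 ± 0.11 (SE). Within slide 1 the sign turned, to 0.17, and within slide 3 it was -0.20.

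Among the importers, Slc39a14 had the smallest p. It encodes ZIP14, which takes zinc, manganese and iron into hepatocytes and is known to respond to interleukin 6. The log2 signals were 2.29, 2.49, 2.75, 2.39 and 2.69 in control and 2.70, 2.97, 2.90, 2.71 and 2.51 in ethanol replicates 1 to 5. Ethanol replicates 2 and 3 lay above every control mouse, and ethanol replicates 1, 4 and 5 lay inside the control range. Its log2 fold change was 0.24 ± 0.12 (SE), a 1.18-fold ratio, with a 95% interval from -0.025 to 0.50. The limma adjusted p was 0.403 and the exact permutation p was 0.0952. The value was 0.17 within slide 1 and 0.28 within slide 3, but 0.12 when ethanol replicates 2 and 3, the arrays of slide column 1, were left out. Fitting the slide column as a numeric term gave 0.11.

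Slc39a8 encodes ZIP8, an importer of zinc and manganese. Its log2 signals were 0.98, 1.23, 1.12, 1.25 and 0.92 in control and 0.84, 1.15, 1.42, 1.32 and 1.04 in ethanol replicates 1 to 5. The ethanol mice spread past both ends of the control range, and the fold change (log2) was 0.054 ± 0.12 (SE), with a 95% interval from -0.21 to 0.32 and a limma adjusted p of 0.868. Its sign was not settled: it was 0.24 within slide 1, -0.12 within slide 3 and -0.032 with median scaling. The other Slc39a8 probe gave 0.036 ± 0.16 (SE).

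Slc39a4 encodes ZIP4, best known as the zinc importer of the intestine. Its log2 signals were 5.03, 4.29, 3.66, 4.31 and 4.15 in control and 4.33, 4.12, 3.95, 4.21 and 4.21 in ethanol replicates 1 to 5. Control replicates 1 and 3 were the highest and the lowest of all 10 mice, and every ethanol mouse lay between them. A log2 fold change of -0.12 ± 0.21 (SE) was found, with a 95% interval from -0.59 to 0.34 and a limma adjusted p of 0.815. Without control replicate 1 it was 0.063. The SD was 0.49 in control and 0.14 in ethanol mice, and both extreme mice were on slide 2. Of the 6 enterocyte markers Vil1 and Sis were well above background on 1 array each, Lct and Alpi on none, and Fabp2 and Apoa4 on all 10. The summed signal of Fabp2 and Apoa4, the tested markers, ran from 507.7 to 698.8 in control and from 264.1 to 792.1 in ethanol livers. Apoa4 was the larger part of it in every mouse, with log2 signals from 8.42 to 9.17 in control and from 7.23 to 9.32 in ethanol livers. The part of this sum in the Slc39a4 values was not tested.

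The exporter Slc30a1 encodes ZnT1, which carries zinc out across the plasma membrane. The log2 signals were 0.47, 0.49, 0.69, 0.61 and 0.54 in control and 0.42, 0.81, 1.13, 0.83 and 0.62 in ethanol replicates 1 to 5. Ethanol replicates 2, 3 and 4 lay above every control mouse and ethanol replicate 1 below every one. The log2 fold change was 0.20 ± 0.12 (SE), a 1.15-fold ratio, with a 95% interval from -0.066 to 0.47. The limma adjusted p was 0.471 and the exact permutation p was 0.127. The value was 0.26 within slide 1 and 0.26 within slide 3, but 0.066 when both arrays of slide column 1 were left out and 0.11 when ethanol replicate 3 was. The log2 fold change of this MTF1 target was positive and those of Mt1 and Mt2 were negative, and each of their intervals included 0.

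Slc30a10 encodes ZnT10, which is known above all for exporting manganese from hepatocytes. Its log2 signals were -1.14, -1.43, -1.90, -0.52 and -1.67 in control and -1.77, -1.08, -0.10, -0.91 and -0.82 in ethanol replicates 1 to 5. Ethanol replicate 3 was the highest of all mice, and control replicate 4 came next. Between the lowest and the highest mouse the signal differed 3.48-fold. The log2 fold change was 0.39 ± 0.32 (SE), with a 95% interval from -0.32 to 1.11, a limma adjusted p of 0.588 and an exact permutation p of 0.31. It was 0.19 within slide 1, 0.48 within slide 3 and 0.19 without ethanol replicate 3.

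**Figure D2:**
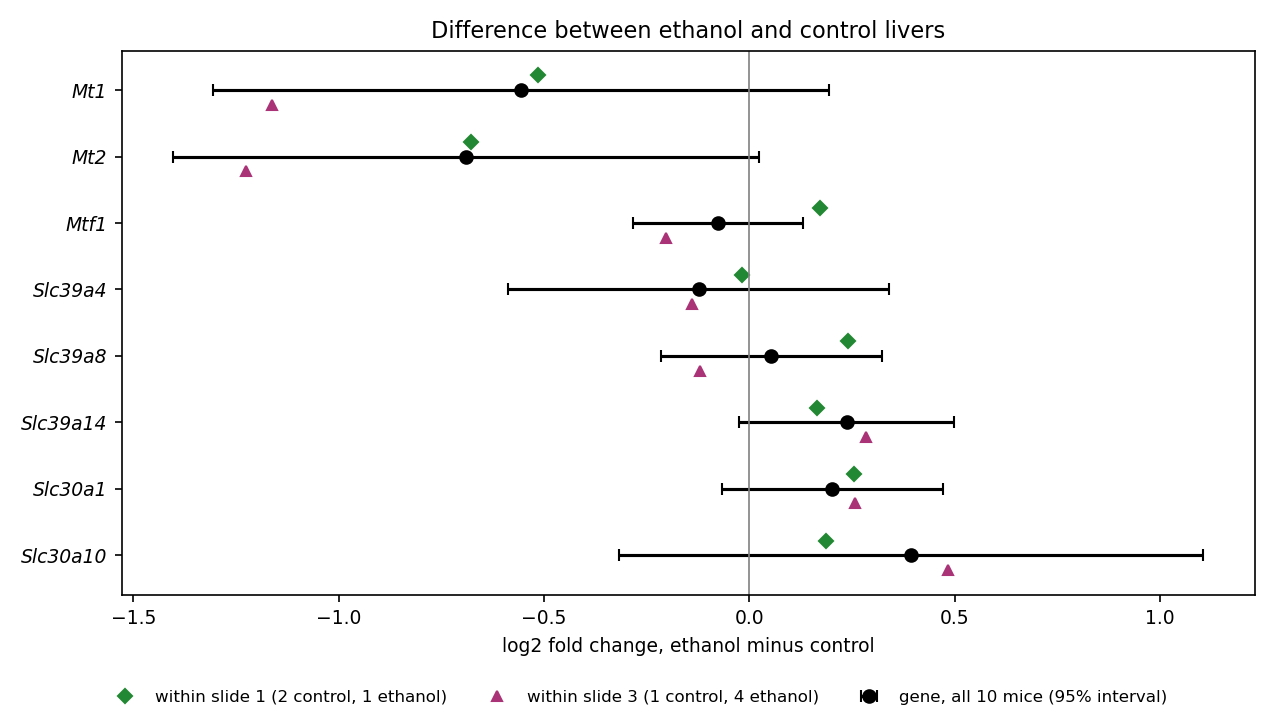
Log2 fold change, ethanol minus control (horizontal axis), for the 8 genes, with the limma 95% interval over all 10 mice (black) and the values within slide 1 (2 control, 1 ethanol mouse) and slide 3 (1 control, 4 ethanol mice). All 8 intervals include 0, and the slide values fall on opposite sides of 0 for Mtf1 and Slc39a8.

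The members were then compared with each other over the 10 mice, in 28 pairs. Mt1 and Mt2 varied together from mouse to mouse, with r = 0.934 and rho = 0.891 (permutation p = 9e-05 and 0.00136, adjusted over the pairs 0.00252 and 0.0381). With each value taken as its deviation from the mean of its own group, r was 0.92. Within slide 3 (5 mice) r was 0.948, and without the mice farthest from the median of Mt1, control replicate 2 and ethanol replicate 3, it was 0.885. Slides 1 and 2 held too few mice for a value. It was the only pair past an adjusted p of 0.05, and 7 of the 28 had an unadjusted p under 0.05 by Pearson's r. The main Mt1 probe correlated less with the further Mt1 probe (r = 0.587) than with the Mt2 probe. Binding of either probe to the RNA of the other metallothionein was not tested, so r may not describe 2 separate RNAs.

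By Pearson's r the most negative pair was Mt1 and Slc30a10, which did not pass after adjustment. It had r = -0.823 and rho = -0.758 (permutation p = 0.00432 and 0.015), with adjusted values of 0.0601 and 0.0969. The relation was -0.79 in deviations from the group means, -0.882 within slide 3, and -0.758 without control replicate 2 and ethanol replicate 3. Ethanol replicate 3 had the lowest Mt1 and the highest Slc30a10 signal of the 10 mice. For Mt2 and Slc30a10 r was -0.633 (rho = -0.576, permutation p = 0.051 and 0.087), and -0.336 without ethanol replicates 3 and 5, so that this value rested on those mice.

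**Figure D3:**
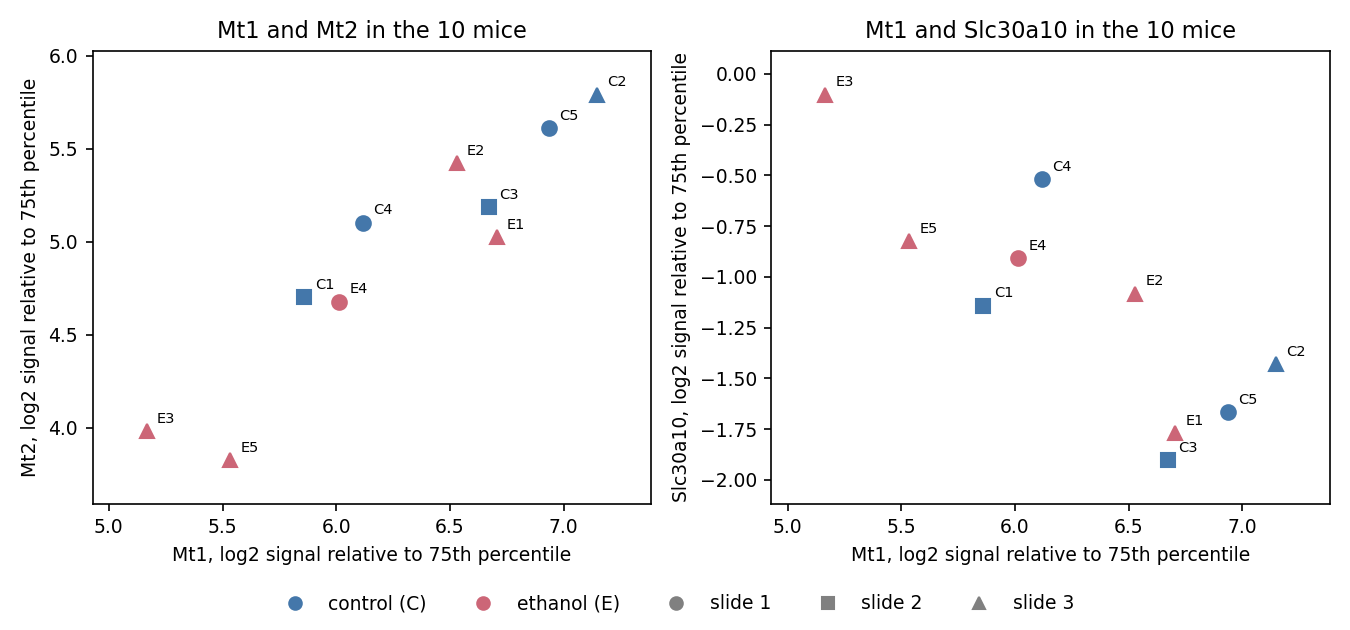
Log2 signal relative to the 75th percentile of Mt1 (horizontal axes) against Mt2 (left) and Slc30a10 (right), 1 point per mouse, coloured by group and shaped by slide. The points of Mt1 and Mt2 follow 1 rising line through both groups (r = 0.934), and those of Mt1 and Slc30a10 fall from left to right (r = -0.823).

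No other pair passed after adjustment. Slc39a8 and Slc30a1 had r = 0.774 and rho = 0.745 (permutation p = 0.00644 and 0.0173, adjusted 0.0601 and 0.0969), but 0.516 without ethanol replicates 1 and 3. Slc39a8 and Slc30a10 had r = 0.702 and rho = 0.685 (permutation p = 0.0243 and 0.0349, adjusted 0.136 and 0.14), and 0.404 without the same mice. Slc30a1 also had r = 0.666 with Slc30a10 (rho = 0.539, permutation p = 0.0336 and 0.116, adjusted 0.148 and 0.325), and 0.266 without ethanol replicates 3 and 4. Within the 5 control mice this pair had r = -0.167. With Slc39a14 it had r = 0.657 (rho = 0.697, permutation p = 0.0371 and 0.0302, adjusted 0.148 and 0.14), and 0.667 without control replicates 1 and 4. The importers Slc39a4 and Slc39a14 were inversely related, with r = -0.705 and rho = -0.806 (permutation p = 0.0171 and 0.00717, adjusted 0.12 and 0.0969), and -0.729 without control replicates 1 and 3. Slc39a4 and Slc30a1 had r = -0.512 and rho = -0.782 (permutation p = 0.133 and 0.0111, adjusted 0.339 and 0.0969). By rho, both of these Slc39a4 pairs were more negative than Mt1 and Slc30a10. Mtf1 had r = 0.253 with Mt1 and 0.467 with Mt2 (permutation p = 0.482 and 0.172, rho = 0.358 and 0.503).

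**Figure D4:**
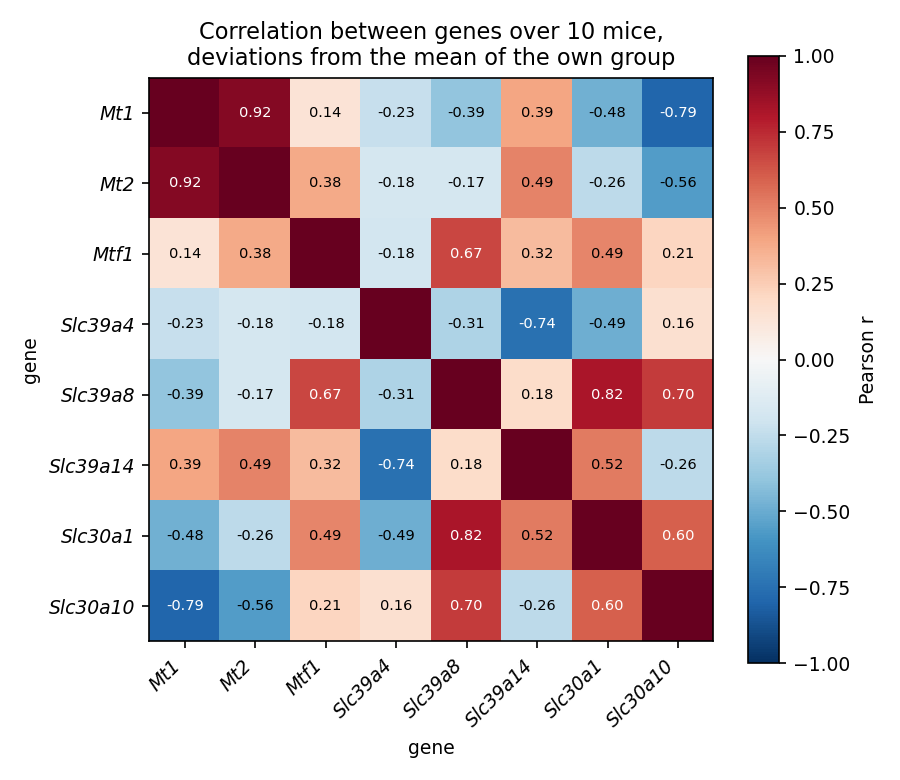
Pearson's r between the 8 genes over the 10 mice, computed on deviations from the mean of each mouse's own group; both axes list the genes and the colour scale runs from -1 to 1. The strongest positive cell is Mt1 with Mt2 (0.92), and the strongest negative cell is Mt1 with Slc30a10 (-0.79).

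By the rule set for likeness, the 5 other genes whose signal over the 10 mice was closest to the mean of Mt1 and Mt2 were 1600014C10Rik (r = 0.934), 1700113A16Rik (0.916), Stim1 (0.902), Xylb (0.901) and Mtmr14 (0.900). In deviations from the group means their r ran from 0.865 for Xylb to 0.924 for 1700113A16Rik. Stim1 encodes a calcium sensor of the endoplasmic reticulum and Xylb a xylulose kinase. Their log2 fold changes were small, from -0.15 in 1600014C10Rik and 1700113A16Rik to -0.081 in Stim1, and none passed in limma. These genes were picked as the highest of all genes tested, so their r is a description of these 10 arrays.

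No other gene of zinc handling passed the threshold. Mt3, the metallothionein best known from brain, stood at 0.094 ± 0.16 (SE) in log2 fold change, and Mt4 was too dim to be tested. Of 11 further Slc39 importers 9 were tested, 6 higher and 3 lower in mean, with a median of 0.017 and a range from -0.73 to 0.35. Slc39a13, an importer of the secretory pathway, had 0.16 ± 0.065 (SE, limma adjusted p = 0.353), and its 5 ethanol values lay above the 5 control values. The same held for 1.94% of all genes tested. Slc39a11 had -0.17 ± 0.080 (SE, limma adjusted p = 0.385). Of 8 further Slc30 exporters 6 were tested, and all lay between -0.068 and 0.091, with Slc30a7 at -0.059 ± 0.061 and Slc30a9 at 0.091 ± 0.11 (SE). The median over the exporters was -0.015, against 0.028 over all genes.

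Genes of copper handling, the other main metal that metallothionein binds, had a median of 0.072, with 6 of 10 higher and 4 lower in mean and none past the threshold. Cp, which encodes the copper-carrying plasma protein ceruloplasmin, had -0.32 ± 0.097 (SE, limma adjusted p = 0.254). Atp7b, the copper pump of the hepatocyte, had 0.23 ± 0.10 (SE, limma adjusted p = 0.367). Of the other genes linked to MTF1, 5 were tested with a median of 0.0077. Selenow, a selenoprotein gene, had 0.21 ± 0.083 (SE, limma adjusted p = 0.327), and Csrp1 had -0.27 ± 0.15 (SE, limma adjusted p = 0.448). None of these genes passed.

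Genes that respond to the known inducers of metallothionein were read beside them. Of 12 glucocorticoid-responsive genes 7 were higher and 5 lower in mean, with a median of 0.061 and none past the threshold. Lcn2, an iron-binding secreted protein that is also on the interleukin 6 list, had -0.90 ± 0.26 (SE, limma adjusted p = 0.237), and the cell cycle inhibitor gene Cdkn1a had -1.10 ± 0.51 (SE, limma adjusted p = 0.38). Of 18 genes of the interleukin 6 and STAT3 response, 14 were lower and 4 higher in mean, with a median of -0.15 and none past the threshold. Steap4, a metalloreductase, had -0.68 ± 0.18 (SE, limma adjusted p = 0.216), and Orm3, an acute phase glycoprotein, had -0.83 ± 0.23 (SE, limma adjusted p = 0.22). Unadjusted p under 0.05 was reached by 1 of the 12 and 3 of the 18 (Lcn2 in both), all lower, where 5.3% of all genes were lower at that level.

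Over the 10 mice the mean of Mt1 and Mt2 was set against each of these 29 genes. None passed after adjustment, and 6 had an unadjusted permutation p under 0.05 by Pearson's r. The largest r was that of Il6ra, which encodes the interleukin 6 receptor, at 0.715 (rho = 0.709, permutation p = 0.0222 and 0.0261, adjusted 0.231 and 0.28). It was 0.827 in deviations from the group means and 0.445 without ethanol replicates 3 and 5. Klf9, a glucocorticoid-responsive transcription factor gene, had r = 0.658 (rho = 0.745, permutation p = 0.0396 and 0.017, adjusted 0.231 and 0.28), and 0.731 without those mice. In deviations from the group means it was 0.555. Fkbp5, another glucocorticoid-responsive gene, had r = 0.558 (rho = 0.697, permutation p = 0.0942 and 0.0311, adjusted 0.304 and 0.28) and 0.846 in deviations from the group means. Other genes of the glucocorticoid list went the other way. Dusp1 had r = -0.610 (rho = -0.491, permutation p = 0.0557 and 0.155), Ddit4 -0.489 and Sgk1 -0.324. Orm3 had r = 0.696, but 0.0796 without ethanol replicates 3 and 5. These relations were computed, and Il6ra, Klf9, Fkbp5, Dusp1, Ddit4 and Sgk1 named, after their values were seen.

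**Figure D5:**
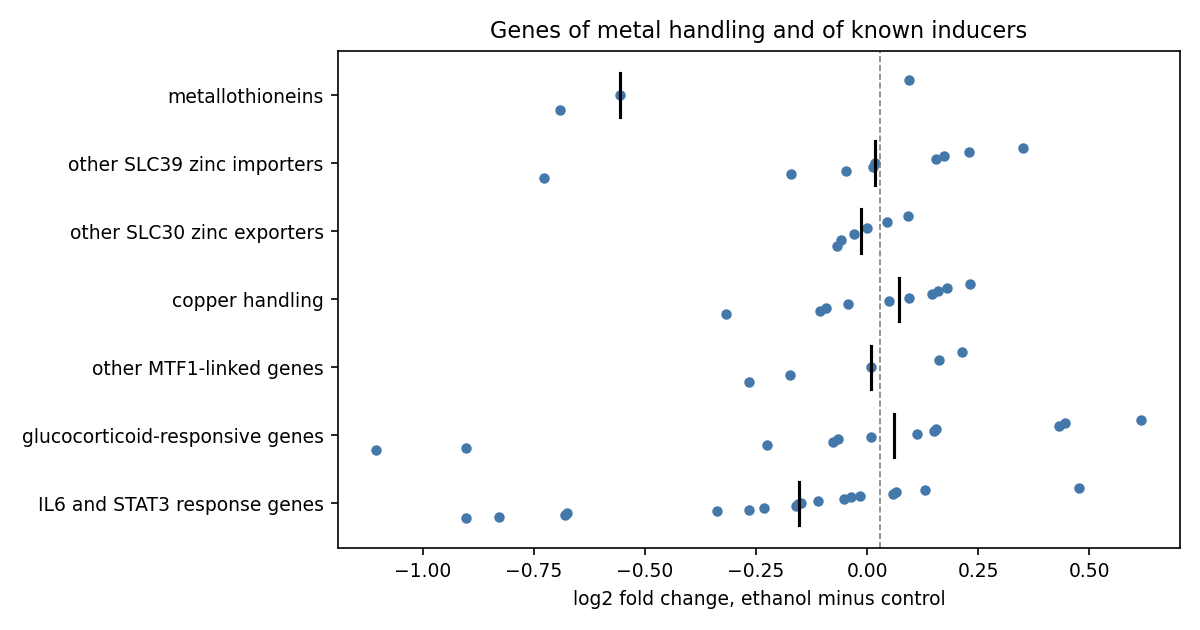
Log2 fold change, ethanol minus control (horizontal axis), of every tested gene in 7 lists of metal handling and inducer-responsive genes; black lines mark list medians and the dashed line marks the median of all genes tested (0.028). Mt1 and Mt2 lie far to the left of the other metallothionein tested, Mt3, and the other Slc30 exporters cluster near 0.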

How the data were processed

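Liver RNA of 10 mice was measured on 10 one-colour Agilent arrays. The authors deposited 1 scanner table per array, with linear spot intensities. The file headers name Feature Extraction 10.7.3.1 as the software and mm9 as the build of the design. The processed intensity is background-subtracted within the array. The authors also deposited a table of log2 values, whose probe centring and making are not given in the sources used here. Differences between arrays in it correlate at r of 1 with those computed here, over 27809 probes.

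Control and outlier spots were left out and spots of a probe were averaged. On each array the 75th percentile over non-control spots was the divisor. Values were floored at 4 signal units, and taken to log2. Probes well above background on at least 4 of 5 arrays of a group were kept (31110). Probes were named through RefSeq accessions (GRCm38.p6 gene table): 32994 had 1 symbol, and 23611 were unnamed here. The kept probe with the highest mean stood for its gene. The comparison used lmFit and eBayes of limma 3.58.1 (R 4.3.3) with Benjamini-Hochberg adjustment over 15089 genes, SE being its moderated standard error, and with exact two-sided permutation. Correlations used 100000 resamples. The fit was tested on simulated data. Promoter sequences are RefSeq's.

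The members and lists were chosen with earlier results of these data known. Named were all members, of each list the genes past the threshold or else those 2 with the smallest p, and the 5 genes most like the mean of Mt1 and Mt2. Alternatives covered normalization, background, floor, filter, probe rule, the log2 table, slide, array column, replicate block, variance model and each array left out. A first run took the percentile over probe means. It was replaced after its results had been seen and is kept as an alternative. Normexp used median spot signals, since a mean signal column was not used here.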

Additional observations from a re-analysis of the deposited data

Results flagged for a closer look

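Each of 24 groups of 5 values (12 probes in 2 groups) was searched for a mouse far from the others of its group, and 2 were found. Chance alone picks out about 1 group in 20. On the further Mt1 probe, control replicate 4 had a log2 signal of -3.09, where the nearest control mouse had -1.997, a gap of 0.784 of the range of the group. On the main Mt1 probe the same mouse, at 6.12, lay above control replicate 1. On the further Slc39a8 probe, control replicate 2 had -1.18, where the nearest control mouse had -1.86, a gap of 0.847 of the range, and on the main Slc39a8 probe it had 1.23, inside the control range.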

How the results depend on the processing

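No member passed the threshold under any of the 30 alternatives. Mt1 ran from -1.16 to -0.35, Mt2 from -1.23 to -0.50, Slc39a14 from 0.11 to 0.30, Slc30a1 from 0.066 to 0.29 and Slc30a10 from 0.16 to 0.60, each with 1 sign throughout. The sign turned for Mtf1 within slide 1 (0.17), for Slc39a4 when slide column was fitted as a numeric term (0.088) and, leaving out 1 array at a time, in a range from -0.28 to 0.063. It turned for Slc39a8 with median scaling (-0.032), within slide 3 (-0.12), with that term (-0.082) and when both arrays of slide column 1 were dropped (-0.035), and leaving out 1 array gave -0.014 to 0.13. The cause was not tested. With the percentile over probe means, added after seeing the data, Mt1 was -0.57 and Mt2 -0.70.

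Over all genes, the counts higher and lower were 4 and 4 with normexp, 9 and 6 with array weights, 8 and 4 with slide as a random block, and 5 and 2 with trend and robust variances. They were 2 and 3 with a floor of 16, 1 and 1 with probes well above background on all 10 arrays, and 2 and 0 when slide column 1 was dropped. Both were 0 with no filter on dim probes, slide as a fixed block, the slide column term, without slide 2, within slide 1 and within slide 3. Leaving out 1 array gave 0 to 3 higher and 0 to 4 lower. Within slides 1 and 3 the lone mouse of a group is taken to vary like the rest.

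Mice with the same replicate number were treated as unpaired. Correlations of deviations between same-numbered mice ran from -0.11 to 0.324, and 3 of 10 mice matched their own number best. So few values cannot settle whether the numbers mark a pairing. With the replicate number as a block both counts were 0, and no member passed. With 5 arrays a group, precision is limited.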
